A study of Homo sapiens with 24 samples.

Results

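The genes described here are the kinesin (KIF) genes and the centromere protein (CENP) genes in HepG2 cells, an established line grown from a human liver carcinoma, which divide in culture and keep many hepatocyte traits. They were chosen by symbol alone, as KIF followed by a digit or any symbol beginning with CENP, and 57 of the 14884 genes tested met that rule. Of these, 40 were KIF genes and 17 were CENP genes, and each was read by 1 probe set, the one with the highest mean over all arrays. Transcript levels came from 24 whole-transcript arrays in 8 groups. BRD8518, a compound given by code name only, was applied at 1 uM for 1 h (3 arrays), 6 h (2 arrays) or 24 h (3 arrays). The cytokine OSM (oncostatin M) was applied at 100 ng/mL for 1 h (3 arrays) or 24 h (3 arrays). Vehicle alone was applied for 1 h (3 arrays), 6 h (4 arrays) or 24 h (3 arrays). All groups had 0.25% DMSO in the medium, the labels name no genetic change in any group, and OSM at 6 h was not analysed here.

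Kinesins are motor proteins that use ATP to walk along microtubules or to take them apart. Mitotic kinesins push spindle poles apart, line up chromosomes and finish cell division, and their genes are most active late in the cell cycle. Transport kinesins carry vesicles, organelles and RNA along microtubules of cells that need not divide. CENP-A is the histone H3 variant that marks the centromere, and the proteins of the constitutive centromere-associated network (CCAN) sit on it and anchor the kinetochore, which grips the spindle. The comparison made throughout is between mitotic kinesins and CENP-A and CCAN genes on one side and transport kinesins on the other.

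All members but KIF9-AS1 fell in 1 of 5 classes, and no member was left out for low signal. The 13 mitotic kinesins were KIF2B, KIF2C, KIF4A, KIF4B, KIF11, KIF14, KIF15, KIF18A, KIF18B, KIF20A, KIF20B, KIF22 and KIF23. The 15 transport kinesins were KIF1A, KIF1B, KIF1C, KIF3A, KIF3B, KIF3C, KIF5A, KIF5B, KIF5C, KIF13A, KIF13B, KIF16B, KIF17, KIF21A and KIF21B. The 11 other kinesins were KIF2A, KIF6, KIF7, KIF9, KIF12, KIF19, KIF24, KIF25, KIF26A, KIF26B and KIF27. Most of these work at cilia, in signalling or in roles less well set. KIF2A, a relative of KIF2C, works both in mitosis and outside it and was not counted with the mitotic kinesins. The 15 CENP-A and CCAN genes were CENPA, CENPC, CENPH, CENPI, CENPK, CENPL, CENPM, CENPN, CENPO, CENPP, CENPQ, CENPT, CENPU, CENPW and CENPX. The 2 other CENP genes were CENPV and the pseudogene CENPBD2P, and KIF9-AS1, an antisense RNA that shares its locus with KIF9, was in no list. CENPE, CENPF and CENPB were not analysed here. KIF4A and KIF4B are near-identical copies whose probe sets may read each other, and the spans of KIF20A, KIF24, CENPU and KIF15 overlap those of CDC23, UBAP1 and NUDT2, PRIMPOL, and TMEM42.

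Levels are on the log2 scale. A change is the mean of one group minus the mean of the other, given with its standard error (SE), and a gene rose or fell where its p, adjusted over all 14884 genes, was under 0.05. No label states whether replicate arrays were separate cultures, so p-values reflect only how far these arrays differ, and that spread may be technical. DMSO 6 h replicate 2 stood apart from the other arrays: its median absolute deviation from its group mean was 0.202, against 0.0508 to 0.125 for the other 23 arrays. Counts and changes of members at 6 h are therefore given with and without it. Class medians, partner genes and cell type markers at 6 h are given with it only. All 6 h arrays carried letter D of a position code whose meaning the labels do not state, so that letter and the 6 h time cannot be told apart. The 24 h arrays carried letter A except DMSO replicate 3 (B), and with the letter as a fixed term 32 members changed at 24 h of BRD8518, against 36 without it. Over all genes 3514 were called with that term, against 4122. At 24 h that term rests on DMSO replicate 3 alone. It gave the same changes as leaving that array out, which also called 32 members, so it is no separate adjustment for position. The liver markers ALB, APOA2, APOH, TF and AFP had mean levels from 11.86 to 12.38 in DMSO at 24 h. Over 10 measured markers of other cells the mean level ran from 7.25 to 7.31 on these arrays. DCN, a stromal marker, stood far under that mean at 2.27, so the list as a whole was not near the lowest values.

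The promoters are shown first because mitotic genes are known to share short promoter letters. CHR, the cell cycle genes homology region, reads TTTGAA, or on the opposite strand TTCAAA, and is bound by complexes that hold mitotic genes off in resting cells and turn them on before division. The CCAAT box, which reads ATTGG on the opposite strand, is bound by NF-Y and often lies upstream of CHR. RefSeq promoters (GRCh38.p14) ran from 250 bases before to 50 bases after each gene's start, and 47 of the 57 members matched; both strands were searched for both motifs, neither of which contains the other. The stretches around the CHR letters of 8 mitotic kinesins are given 5′ to 3′ on the gene's strand, with CHR and the CCAAT box nearest upstream of it in capitals. KIF11 lies at chr10:92593062-92593117 (plus strand), KIF14 at chr1:200620735-200620790 (minus), KIF15 at chr3:44761719-44761774 (plus), KIF18A at chr11:28108151-28108206 (minus), KIF18B at chr17:44947756-44947811 (minus), KIF23 at chr15:69414254-69414309 (plus), KIF4A at chrX:70290030-70290085 (plus) and KIF4B at chr5:155013718-155013773 (plus).
KIF11: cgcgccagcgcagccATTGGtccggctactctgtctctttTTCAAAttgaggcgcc
KIF14: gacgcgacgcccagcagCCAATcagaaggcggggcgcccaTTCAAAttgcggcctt
KIF15: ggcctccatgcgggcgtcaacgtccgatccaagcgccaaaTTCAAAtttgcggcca
KIF18A: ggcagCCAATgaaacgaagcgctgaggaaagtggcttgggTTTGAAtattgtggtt
KIF18B: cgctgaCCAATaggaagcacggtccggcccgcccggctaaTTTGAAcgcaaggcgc
KIF23: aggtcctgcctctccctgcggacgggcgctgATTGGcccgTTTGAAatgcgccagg
KIF4A: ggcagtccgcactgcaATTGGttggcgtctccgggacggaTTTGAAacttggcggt
KIF4B: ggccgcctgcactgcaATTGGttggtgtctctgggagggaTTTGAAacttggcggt

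The CHR letters occurred in the promoters of 9 of 13 mitotic kinesins (69.2%), the 8 shown and KIF20B, and in 4 of 12 matched CENP-A and CCAN genes (33.3%). They occurred in 1 of 12 matched transport kinesins (8.33%), KIF5B, and in 0 of 8 other kinesins, against 18.2% of all 27305 genes with a promoter and 15.2% of 35116 promoters. CCAAT letters occurred in 10 of 13 mitotic kinesins (76.9%), 9 of 12 CENP-A and CCAN genes (75.0%) and 4 of 12 transport kinesins (33.3%), against 39.7% of all genes and 34.6% of promoters. In 7 of the 9 mitotic kinesins with CHR, a CCAAT box lay upstream within 60 bases, 9 to 35 bases away. These 9 genes held 10 CHR matches, 2 of them in KIF20B, all within 55 bases of the start, 5 before it and 5 after it. The KIF4A and KIF4B stretches were identical at 50 of 56 bases. A match of these letters is a description of the sequence and shows no binding.

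The 250 bases before the start are also given for 4 members whose array values are reported, 2 that were lower and 2 that were higher at 24 h of BRD8518. They are KIF11 (chr10:92592880-92593129, plus strand), KIF20A (chr5:138178862-138179111, plus), KIF3C (chr2:25982498-25982747, minus) and KIF13A (chr6:17987636-17987885, minus), all in GRCh38.p14 and 5′ to 3′, with CHR and CCAAT letters of either strand in capitals. KIF11 had 1 CCAAT box and 1 CHR, 53 and 28 bases before the start. KIF20A had 2 CCAAT boxes, 94 and 67 bases before the start, and no CHR letters. The KIF3C and KIF13A windows held neither set of letters.
KIF11: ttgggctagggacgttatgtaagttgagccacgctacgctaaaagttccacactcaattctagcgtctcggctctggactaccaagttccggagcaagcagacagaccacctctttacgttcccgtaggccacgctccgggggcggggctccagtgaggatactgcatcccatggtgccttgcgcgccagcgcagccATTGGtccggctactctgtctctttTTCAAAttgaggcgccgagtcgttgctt
KIF20A: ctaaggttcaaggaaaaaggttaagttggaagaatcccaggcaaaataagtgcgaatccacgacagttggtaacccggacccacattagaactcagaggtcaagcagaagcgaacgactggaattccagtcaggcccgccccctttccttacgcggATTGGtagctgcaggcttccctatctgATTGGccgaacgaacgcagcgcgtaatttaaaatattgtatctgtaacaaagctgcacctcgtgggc
KIF3C: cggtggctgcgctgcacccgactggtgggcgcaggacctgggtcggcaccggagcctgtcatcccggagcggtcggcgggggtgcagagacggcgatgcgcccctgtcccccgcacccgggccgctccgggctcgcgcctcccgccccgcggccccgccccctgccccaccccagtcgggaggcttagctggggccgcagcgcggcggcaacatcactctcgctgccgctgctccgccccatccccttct
KIF13A: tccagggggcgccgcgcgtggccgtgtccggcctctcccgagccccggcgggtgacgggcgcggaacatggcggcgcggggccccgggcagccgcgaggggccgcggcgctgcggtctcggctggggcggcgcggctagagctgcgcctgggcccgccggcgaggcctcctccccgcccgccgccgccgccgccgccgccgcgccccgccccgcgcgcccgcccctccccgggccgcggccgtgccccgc

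At 24 h of BRD8518, 12 of the 13 mitotic kinesins fell and 0 rose, and 8 of the 15 transport kinesins rose and 0 fell. KIF2A, which has a mitotic role but was listed with the other kinesins, rose. Among the CENP-A and CCAN genes 13 of 15 fell. In all, 26 of the 57 members fell and 10 rose, while 15.6% of all genes fell and 12.1% rose, 27.7% together. The median change was -0.63 for mitotic kinesins, -0.73 for CENP-A and CCAN genes and 0.31 for transport kinesins, against -0.00 over all genes tested. All 3 BRD8518 arrays lay below all 3 DMSO arrays for 12 mitotic kinesins and for 13 CENP-A and CCAN genes, and above them for 10 transport kinesins, with 1 transport kinesin below; over all genes these shares were 24.4% below and 19.8% above. The mean over the 13 mitotic kinesins ran from 8.37 to 8.48 on the DMSO arrays and from 7.62 to 7.72 on the BRD8518 arrays. Over the 15 transport kinesins it ran from 7.29 to 7.32 in DMSO and from 7.68 to 7.70 in BRD8518. Fewer dividing cells and less RNA of these genes per cell cannot be told apart in bulk RNA.

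**Figure D1:**
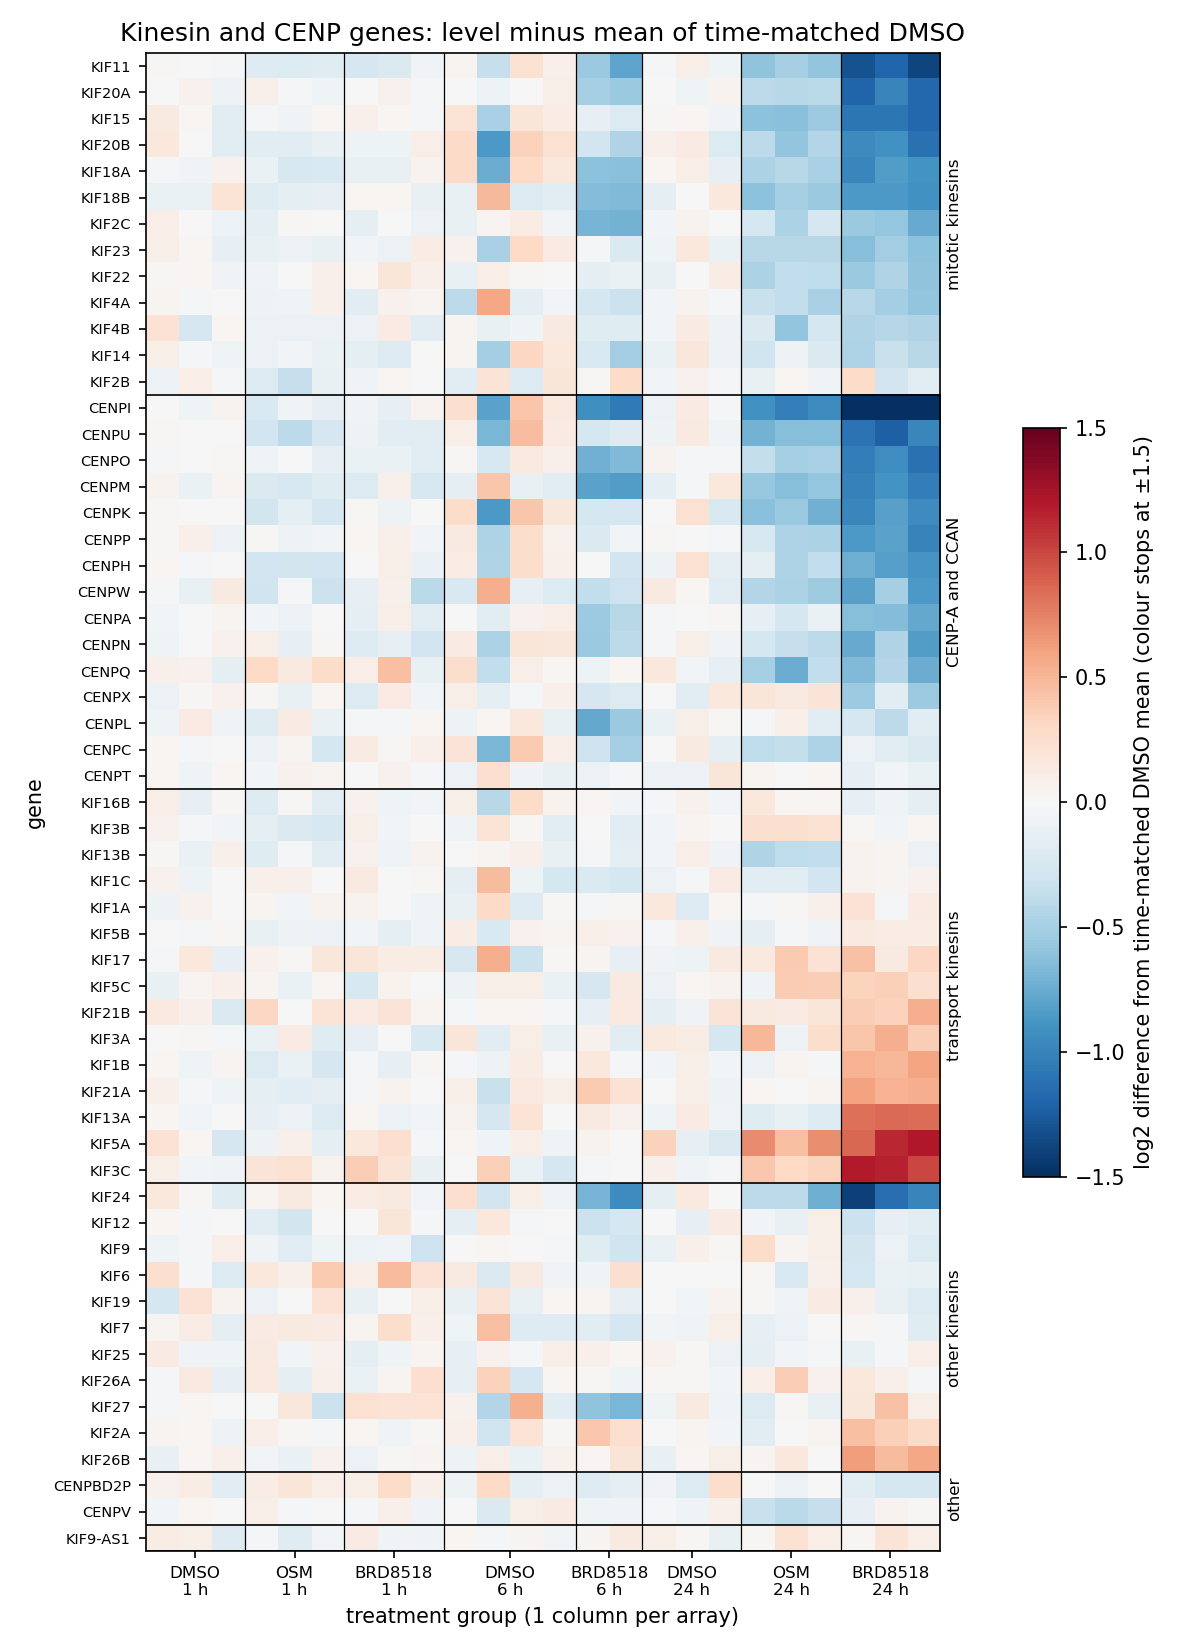
Each row is 1 of the 57 genes and each column 1 of the 24 arrays. The colour gives the log2 level minus the mean of the DMSO arrays of the same time, stopping at 1.5 in either direction. The blue block at 24 h of BRD8518 covers most mitotic kinesins and CENP-A and CCAN genes (12 of 13 and 13 of 15 fell), the red block covers 8 of 15 transport kinesins, and DMSO 6 h replicate 2 differs from its group.

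KIF11, the motor that pushes spindle poles apart, had the largest fall of the mitotic kinesins. Its levels at 24 h were 9.79, 9.89 and 9.74 on the DMSO arrays and 8.50, 8.62 and 8.43 on the BRD8518 arrays. The groups did not overlap, and each BRD8518 array was more than 1 log2 unit under the lowest DMSO array. The change was -1.29 (SE 0.10, 95% interval -1.51 to -1.07, adjusted p = 2.14e-09), a 2.45-fold lower level. KIF20A, which works at the spindle midzone and in cytokinesis, stood at 9.41, 9.35 and 9.46 in DMSO and at 8.20, 8.41 and 8.23 in BRD8518. Again no array overlapped, and the change was -1.12 (SE 0.07, adjusted p = 4.70e-11). KIF15, a spindle motor that can partly stand in for KIF11, stood at 8.91, 8.92 and 8.83 in DMSO and 7.80, 7.80 and 7.70 in BRD8518, with a change of -1.12 (SE 0.12, adjusted p = 2.42e-07). The BRD8518 arrays for KIF15 lay close together and all below DMSO.

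The other mitotic kinesins that fell did so over a range of sizes. KIF20B, needed for cytokinesis, fell by 0.99 (SE 0.20) and KIF18A, which shortens the swing of chromosomes at the spindle equator, by 0.90 (SE 0.17). KIF18B, a depolymerase of astral microtubules, fell by 0.88 (SE 0.13). Smaller falls were those of KIF2C, the depolymerase that corrects faulty kinetochore attachments, at -0.63, and KIF23, which bundles midzone microtubules, at -0.59. KIF22, a motor that binds chromosome arms, KIF4A, a midzone and chromosome motor, its copy KIF4B, and KIF14, a cytokinesis motor, fell by 0.40 to 0.53. KIF2B was the mitotic kinesin that did not pass the test, at -0.06 (95% interval -0.32 to 0.20, adjusted p = 0.821). The fall of KIF14 was no longer past the threshold when any of the 3 BRD8518 arrays or DMSO replicate 2 or 3 was left out (-0.44 to -0.32, adjusted p from 0.0516 to 0.166).

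CENPI, a CCAN subunit needed to load CENP-A, had the largest fall of all 57 members. It stood at 8.44, 8.64 and 8.49 in DMSO and at 6.93, 7.01 and 6.81 in BRD8518 at 24 h. The gap between the groups was over 1 log2 unit on every pair of arrays, and the change was -1.61 (SE 0.18, adjusted p = 4.09e-07), a 3.04-fold lower level. CENPU, the subunit that recruits PLK1 to the kinetochore, stood at 7.52, 7.74 and 7.53 in DMSO and 6.49, 6.37 and 6.61 in BRD8518. No BRD8518 array reached the DMSO range, and CENPU changed by -1.10 (SE 0.17, adjusted p = 1.67e-05).

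CENPO, CENPP, CENPQ and CENPU form 1 subcomplex of the CCAN with CENP-R, and its members fell together: CENPO by 1.03, CENPP by 0.89 and CENPQ by 0.62, while ITGB3BP, which encodes CENP-R, fell by 0.56. CENPH, CENPK and CENPM, which form a subcomplex with CENPI, fell by 0.82, 0.91 and 0.98. The partners CENPL and CENPN, which hold the CENP-A nucleosome, fell by 0.27 and 0.68. CENPA itself fell by 0.68 (SE 0.08, adjusted p = 8.10e-07). Of the histone-fold group, CENPW fell by 0.73 and CENPX by 0.42, whereas CENPT stood at -0.09 (95% interval -0.27 to 0.09). CENPC, the scaffold between CENP-A and the outer kinetochore, was the other gene that did not pass, at -0.15 (95% interval -0.50 to 0.19, adjusted p = 0.589). The fall of CENPL was the smallest that passed and was lost without BRD8518 replicate 1 or 2 or DMSO replicate 2 or 3 (-0.29 to -0.21, adjusted p from 0.0723 to 0.173).

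**Figure D2:**
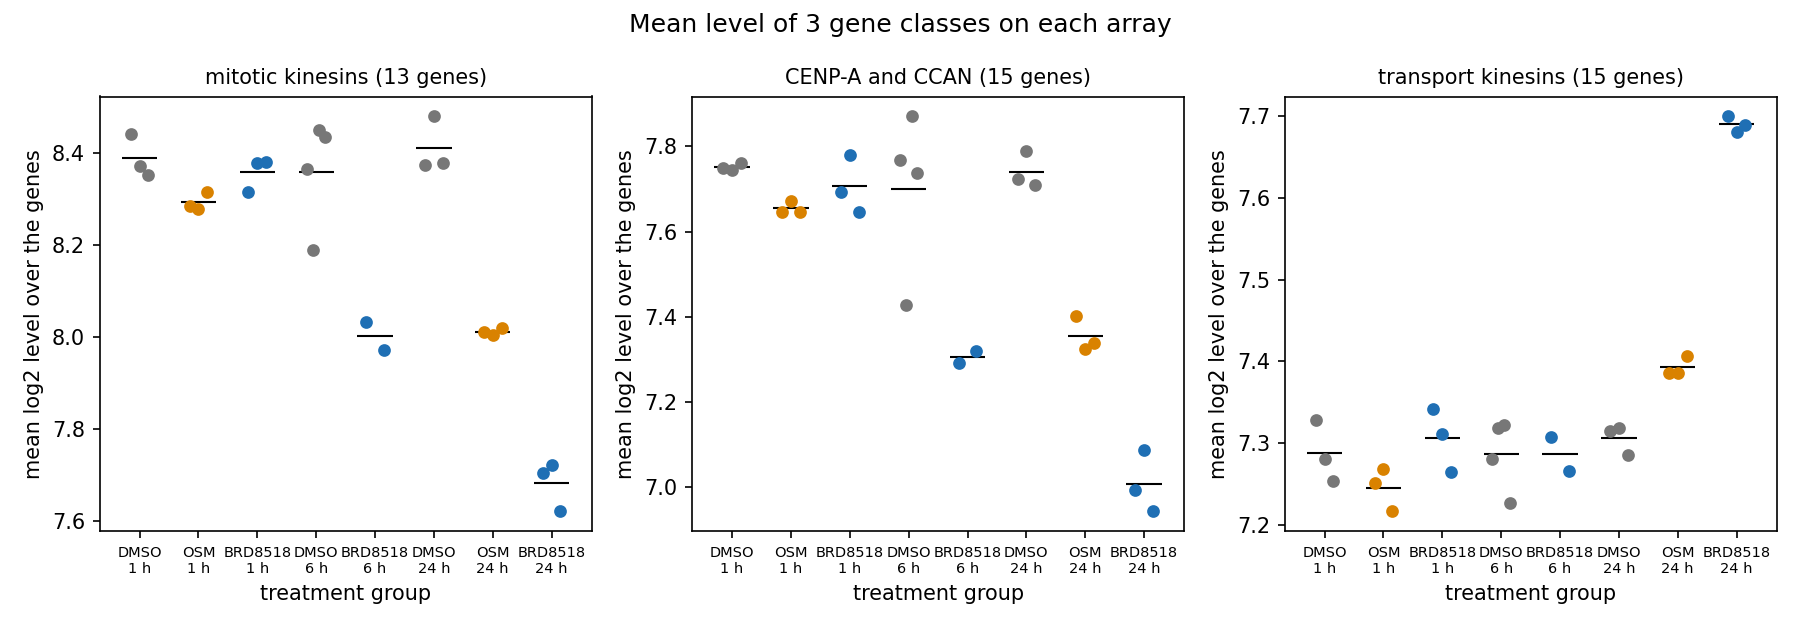
Each point is 1 array, giving the mean log2 level over the genes of a class, and each short line is a group mean; the vertical scales differ between panels. Mitotic kinesins on BRD8518 arrays at 24 h lie between 7.62 and 7.72, below the DMSO range of 8.37 to 8.48, and transport kinesins between 7.68 and 7.70, above the DMSO range of 7.29 to 7.32.

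KIF3C, the neuron-enriched partner of KIF3A in a transport motor, had the largest rise of all members. It stood at 7.42, 7.28 and 7.33 in DMSO and at 8.54, 8.50 and 8.35 in BRD8518 at 24 h. All BRD8518 arrays were above all DMSO arrays, and the change was 1.12 (SE 0.12, adjusted p = 1.79e-07), a 2.17-fold higher level. KIF5A, a heavy chain of conventional kinesin best known from neurons, stood at 5.78, 5.32 and 5.22 in DMSO and 6.30, 6.57 and 6.65 in BRD8518. The DMSO arrays were spread more widely than for KIF3C but stayed below BRD8518, and the change was 1.07 (SE 0.13, adjusted p = 1.63e-06). KIF13A, a carrier of endosomes and melanosome cargo, stood at 8.44, 8.62 and 8.44 in DMSO and 9.33, 9.35 and 9.34 in BRD8518. The BRD8518 arrays were nearly equal to each other and all above DMSO, and KIF13A rose by 0.84 (SE 0.09, adjusted p = 1.12e-07).

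KIF21A and KIF21B, which act on microtubule growth, rose by 0.55 (SE 0.09) and 0.42 (SE 0.10). KIF1B, a carrier of mitochondria and synaptic vesicle precursors, rose by 0.54 (SE 0.07). KIF3A, the shared subunit of kinesin-II, rose by 0.44 and KIF5C, another conventional kinesin heavy chain, by 0.31. Both calls depended on single arrays. KIF3A was lost without BRD8518 replicate 2 (0.39) or DMSO replicate 3 (0.31), and KIF5C when any 1 of the 6 arrays was left out (0.27 to 0.35, adjusted p from 0.063 to 0.164).

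The other 7 transport kinesins did not pass. KIF5B, the ubiquitous conventional kinesin heavy chain, stood at 11.01, 11.11 and 10.97 in DMSO and 11.17, 11.14 and 11.14 in BRD8518. Its BRD8518 arrays lay above DMSO by a narrow margin, with a change of 0.12 (95% interval -0.04 to 0.28, adjusted p = 0.288). KIF1C, which carries vesicles and integrins, stood at 9.19, 9.25 and 9.40 in DMSO and 9.33, 9.32 and 9.35 in BRD8518. These arrays overlapped, with a change of 0.05 (95% interval -0.20 to 0.30). KIF3B, KIF13B, KIF16B and KIF1A had changes from -0.11 to 0.11. KIF17, a dendritic and ciliary motor, stood at 0.30 (95% interval -0.01 to 0.61), and passed with the compared groups fitted alone, with array weights and without DMSO 6 h replicate 2, which enters the shared estimate of the spread.

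Among the 11 other kinesins at 24 h of BRD8518, KIF24 fell and KIF26B and KIF2A rose. KIF24, a depolymerase of the mother centriole that holds back cilium growth, stood at 6.63, 6.91 and 6.77 in DMSO and 5.37, 5.63 and 5.78 in BRD8518. The groups did not overlap and the change was -1.17 (SE 0.13, adjusted p = 3.14e-07). KIF26B, a kinesin without motor activity, stood at 4.85, 5.00 and 5.06 in DMSO and 5.59, 5.44 and 5.55 in BRD8518. All BRD8518 arrays were higher, by 0.56 in the mean (SE 0.08, adjusted p = 1.56e-05). KIF2A, a depolymerase related to KIF2C that also works outside mitosis, rose by 0.36 (SE 0.10), opposite in sign to KIF2C. The other 8 did not pass and ranged from -0.20 for KIF12 to 0.24 for KIF27. CENPV, CENPBD2P and KIF9-AS1 stood at -0.02, -0.23 and 0.11, also without passing.

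**Figure D3:**
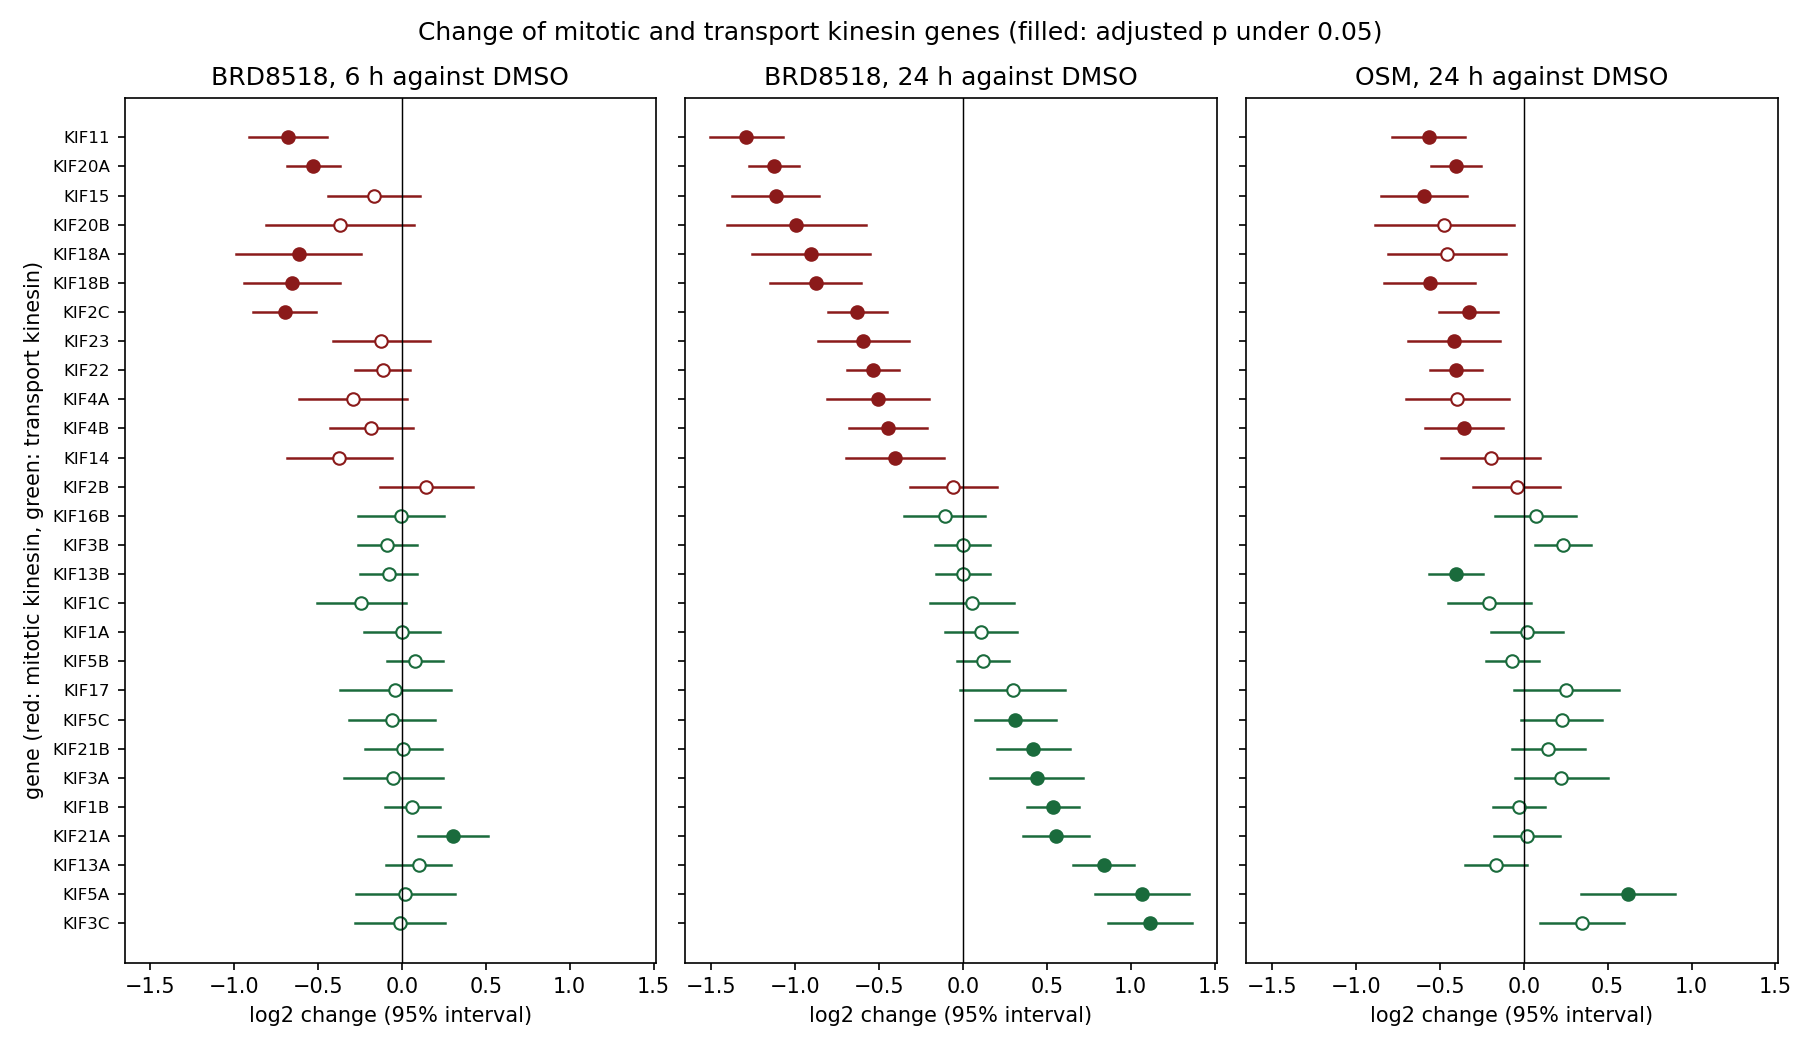
Points give the log2 change of each mitotic (red) and transport (green) kinesin against DMSO of the same time, with 95% intervals from the fit; filled points passed an adjusted p of 0.05. The 24 h BRD8518 panel runs from -1.29 for KIF11 to 1.12 for KIF3C, while at 6 h transport kinesins lie near 0 apart from KIF21A (0.30). The 6 h panel includes DMSO replicate 2, without which KIF21A stood at 0.19.

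Partner genes of the kinesins and CENP proteins were read on the same arrays. Of 25 kinetochore partners measured, from 35 listed, 21 fell and 0 rose at 24 h of BRD8518 (median -0.66). The largest falls were those of SKA3 (-1.44), which helps the kinetochore hold microtubule ends, MIS18A (-1.23), which licenses CENP-A loading, BIRC5 (-1.17), the survivin subunit of the chromosomal passenger complex, and ZWINT (-1.13), a kinetochore scaffold. Of 7 spindle and midzone partners (12 listed) 5 fell, with HMMR at -0.98, the minus-end kinesin KIFC1 at -0.81, NUSAP1 at -0.73 and PRC1 at -0.42. Of 18 regulators of G2 and mitosis (19 listed) 16 fell (median -0.77), led by the transcription factor FOXM1 (-0.89), the pocket protein RBL1 (-0.89), TFDP1 (-0.86) and the proliferation marker MKI67 (-0.85).

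Among 12 partners of transport kinesins (17 listed), 4 rose and 1 fell at 24 h of BRD8518 (median 0.09). KIFAP3, the cargo adaptor of kinesin-II, rose by 0.69, the kinesin light chains KLC1 and KLC2 by 0.55 and 0.46, and the scaffold MAPK8IP3 by 0.46. The light chain KLC4 fell by 0.50. Of the kinesin-II subunits, KIF3A, KIF3C and KIFAP3 were past the threshold and KIF3B stood at -0.00 (95% interval -0.17 to 0.16). Whether the subunits differed from each other was not tested.

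Cell type markers moved on the same 24 h arrays. Of 8 hepatocyte markers measured (10 listed) 6 fell and 0 rose, and their mean level ran from 10.8 to 10.9 on the BRD8518 arrays and from 11.2 to 11.3 in DMSO. Of 10 markers of other cells (15 listed), 2 rose, CD68 (1.19) and KRT19 (0.97), and 0 fell, with a mean level from 7.43 to 7.47 in BRD8518 and from 7.25 to 7.31 in DMSO. The part of these shifts in the kinesin and CENP results was not tested.

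At 6 h of BRD8518, 13 members fell and 2 rose, while 8.86% of all genes fell and 5.62% rose, 14.5% together. Mitotic kinesins made up 5 of the falls and CENP-A and CCAN genes 6, while 1 of 15 transport kinesins, KIF21A, rose and 0 fell. The median change was -0.37 for mitotic kinesins, -0.34 for CENP-A and CCAN genes and -0.00 for transport kinesins, against -0.01 over all genes. Without DMSO replicate 2, 21 members fell and 2 rose, with 14.7% of all genes lower and 7.81% higher. The falls included 9 mitotic kinesins and 10 CENP-A and CCAN genes, and the 2 rises were those of KIF2A (0.22) and KIF21A (0.19). A fit of the 6 h groups alone called 5 of the members and a fit with array weights 24, against 15. Over all genes these fits called 452 and 3466, against 2155. Of all genes called at 6 h 61.2% were lower, and 41.9% with arrays centred on the genes tested, when 11 members were lower and 2 higher.

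CENPI again had the largest fall at 6 h. It stood at 8.56, 7.53, 8.74 and 8.48 on the DMSO arrays and at 7.40 and 7.27 on the BRD8518 arrays. DMSO replicate 2 was about 1 log2 unit below the other DMSO arrays, close to BRD8518, and the change was -0.99 (SE 0.20, adjusted p = 9.11e-04), or -1.26 without that array. KIF11 stood at 9.75, 9.36, 9.92 and 9.77 in DMSO and 9.14 and 8.90 in BRD8518, with a change of -0.68 (SE 0.11, adjusted p = 1.43e-04), or -0.79 without DMSO replicate 2. KIF20A stood at 9.41, 9.35, 9.43 and 9.51 in DMSO and 8.92 and 8.87 in BRD8518. Here DMSO replicate 2 lay with its group, and KIF20A fell by 0.53 (SE 0.08, adjusted p = 3.08e-05), or by 0.55 without that array.

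KIF24 stood at 6.85, 6.31, 6.68 and 6.54 in DMSO and 5.90 and 5.65 in BRD8518 at 6 h. The change was -0.82 (SE 0.14, adjusted p = 2.21e-04), or -0.91 without DMSO replicate 2. CENPM, KIF2C, CENPO, CENPL and KIF18B fell by 0.66 to 0.82. Without DMSO replicate 2 their changes were, in that order, -0.68, -0.68, -0.78, -0.65 and -0.50. Falls of 0.47 to 0.65 were those of KIF27, KIF18A, CENPA and CENPN (-0.79, -0.86, -0.53 and -0.63 without DMSO replicate 2). Of these, KIF18A and CENPN overlapped DMSO on DMSO replicate 2 and were lost when any single 6 h array other than it was left out (KIF18A -0.62 to -0.51, CENPN -0.56 to -0.39). KIF27, a cilium-related kinesin, was lost when either BRD8518 array was left out (-0.69 and -0.61) and stood at -0.18 as the mean of its 3 probe sets. KIF2A rose by 0.32 and KIF21A by 0.30, and both were lost without either BRD8518 array (0.22 to 0.40); KIF2A was also lost without DMSO replicate 4 (0.33).

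KIF15 and CENPU, both among the largest falls at 24 h, did not pass at 6 h. KIF15 stood at 8.94, 8.24, 8.91 and 8.84 in DMSO and 8.61 and 8.52 in BRD8518, and CENPU at 7.52, 6.74, 7.89 and 7.55 in DMSO and 7.16 and 7.23 in BRD8518. For both genes DMSO replicate 2 lay below the BRD8518 arrays and the other DMSO arrays above them. The changes were -0.17 for KIF15 and -0.23 for CENPU, and without that array -0.33 and -0.46, past the threshold.

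The transport kinesins that rose most at 24 h did not pass at 6 h. KIF3C stood at 7.42, 7.78, 7.32 and 7.18 in DMSO and 7.41 and 7.42 in BRD8518, a change of -0.01 (95% interval -0.28 to 0.26). KIF5A stood at 5.38, 5.28, 5.45 and 5.29 in DMSO against 5.40 and 5.34 in BRD8518, a change of 0.02 (95% interval -0.28 to 0.32). KIF13A stood at 8.43, 8.12, 8.58 and 8.37 in DMSO against 8.51 and 8.43 in BRD8518, a change of 0.10 (95% interval -0.09 to 0.29). In all of them the BRD8518 arrays lay inside the DMSO range. Without DMSO replicate 2 the changes were 0.11 for KIF3C, -0.00 for KIF5A and 0.01 for KIF13A, and none passed. KIF26B stood at 4.88, 5.06, 4.86 and 5.02 in DMSO against 4.98 and 5.15 in BRD8518. KIF5B stood at 11.12, 10.78, 11.08 and 11.05 in DMSO against 11.09 and 11.07 in BRD8518. KIF1C stood at 9.18, 9.78, 9.23 and 9.05 in DMSO against 9.09 and 9.04 in BRD8518. Their changes of 0.11, 0.08 and -0.24 did not pass, nor did those without DMSO replicate 2 (0.15, 0.00 and -0.09).

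Of the partners at 6 h, 11 of 25 kinetochore genes fell, led by NDC80 (-0.81), which binds microtubules, SGO2 (-0.65), a guardian of cohesion, CDCA8 (-0.61) and ZWINT (-0.58). KIFC1 (-0.84) and PRC1 (-0.30) fell among the 7 spindle partners. Of 18 regulators of G2 and mitosis 7 fell, with RBL1 at -0.69, cyclin B1 (CCNB1) at -0.56, CDC25C at -0.53 and MKI67 at -0.42. Of 12 transport partners KIFBP (-0.36) and KLC4 (-0.36) fell and 0 rose. Of the hepatocyte markers APOA1 (-0.52) and TF (-0.28) fell, with a mean level over the list from 11.19 to 11.21 in BRD8518 and from 11.27 to 11.36 in DMSO, and of the markers of other cells CD68 rose (0.51); their part in the 6 h result was not tested.

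Of the 13 members lower at 6 h, 12 were also lower at 24 h, which is 92.3% of the 6 h list and 46.2% of the 24 h list; the exception was KIF27. Both members higher at 6 h were higher at 24 h (20.0% of the 24 h list). The difference between the BRD8518 effects at 24 h and 6 h was tested itself and passed for 13 members, 7 with a more negative and 6 with a more positive change at 24 h, while 5.12% and 5.96% of all genes did so (11.1% together); the lower share of those calls was 46.2%, or 56.9% with that centring. KIF3C (1.13, SE 0.18, adjusted p = 1.53e-04), KIF5A (1.04, SE 0.20, adjusted p = 9.28e-04) and KIF13A (0.74, SE 0.13, adjusted p = 4.27e-04) had the largest positive differences among transport kinesins, followed by KIF1B (0.47). KIF27 (0.89, but 0.14 as the mean of its probe sets) and KIF26B (0.45) were the other positive ones. In the same test 4 of 8 hepatocyte markers had a more negative change at 24 h and 2 of 10 markers of other cells a more positive one, and their part was not tested.

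The negative differences between 24 h and 6 h were those of KIF15 (-0.95, SE 0.18, adjusted p = 9.99e-04), CENPU (-0.87), CENPP (-0.77), CENPH (-0.67), KIF11 (-0.61), KIF20A (-0.60) and KIF22 (-0.42). KIF2C, by contrast, had changes of -0.70 at 6 h and -0.63 at 24 h, and the difference of 0.07 did not pass (95% interval -0.19 to 0.32). With DMSO 6 h replicate 2 left out, the 6 h falls of KIF15, CENPU, KIF11 and KIF20A were larger (-0.33, -0.46, -0.79 and -0.55). Their differences between 24 h and 6 h were then smaller. In that fit 19 members passed, among them every gene with a negative difference named above, and 2741 of all genes passed, against 1649. Gained there were CENPI, CENPW, KIF18B and KIF4A with a more negative change at 24 h. CENPC and KIF21A were gained with a more positive one. Without BRD8518 6 h replicate 2 the difference passed for 8 members, and CENPP (-0.68), CENPU (-0.84), KIF1B (0.38), KIF22 (-0.40) and KIF27 (0.85) were lost. Without BRD8518 6 h replicate 1, CENPH, CENPU, KIF11 and KIF26B were lost and 9 members passed. CENPH was also lost without BRD8518 24 h replicate 2 or 3 or DMSO 24 h replicate 2, CENPU without BRD8518 24 h replicate 2 or DMSO 24 h replicate 2, and KIF26B without BRD8518 24 h replicate 1 or DMSO 24 h replicate 1 (KIF11 -0.50, CENPH -0.67 to -0.53, CENPU -0.91 to -0.80, KIF26B 0.36 to 0.41).

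**Figure D4:**
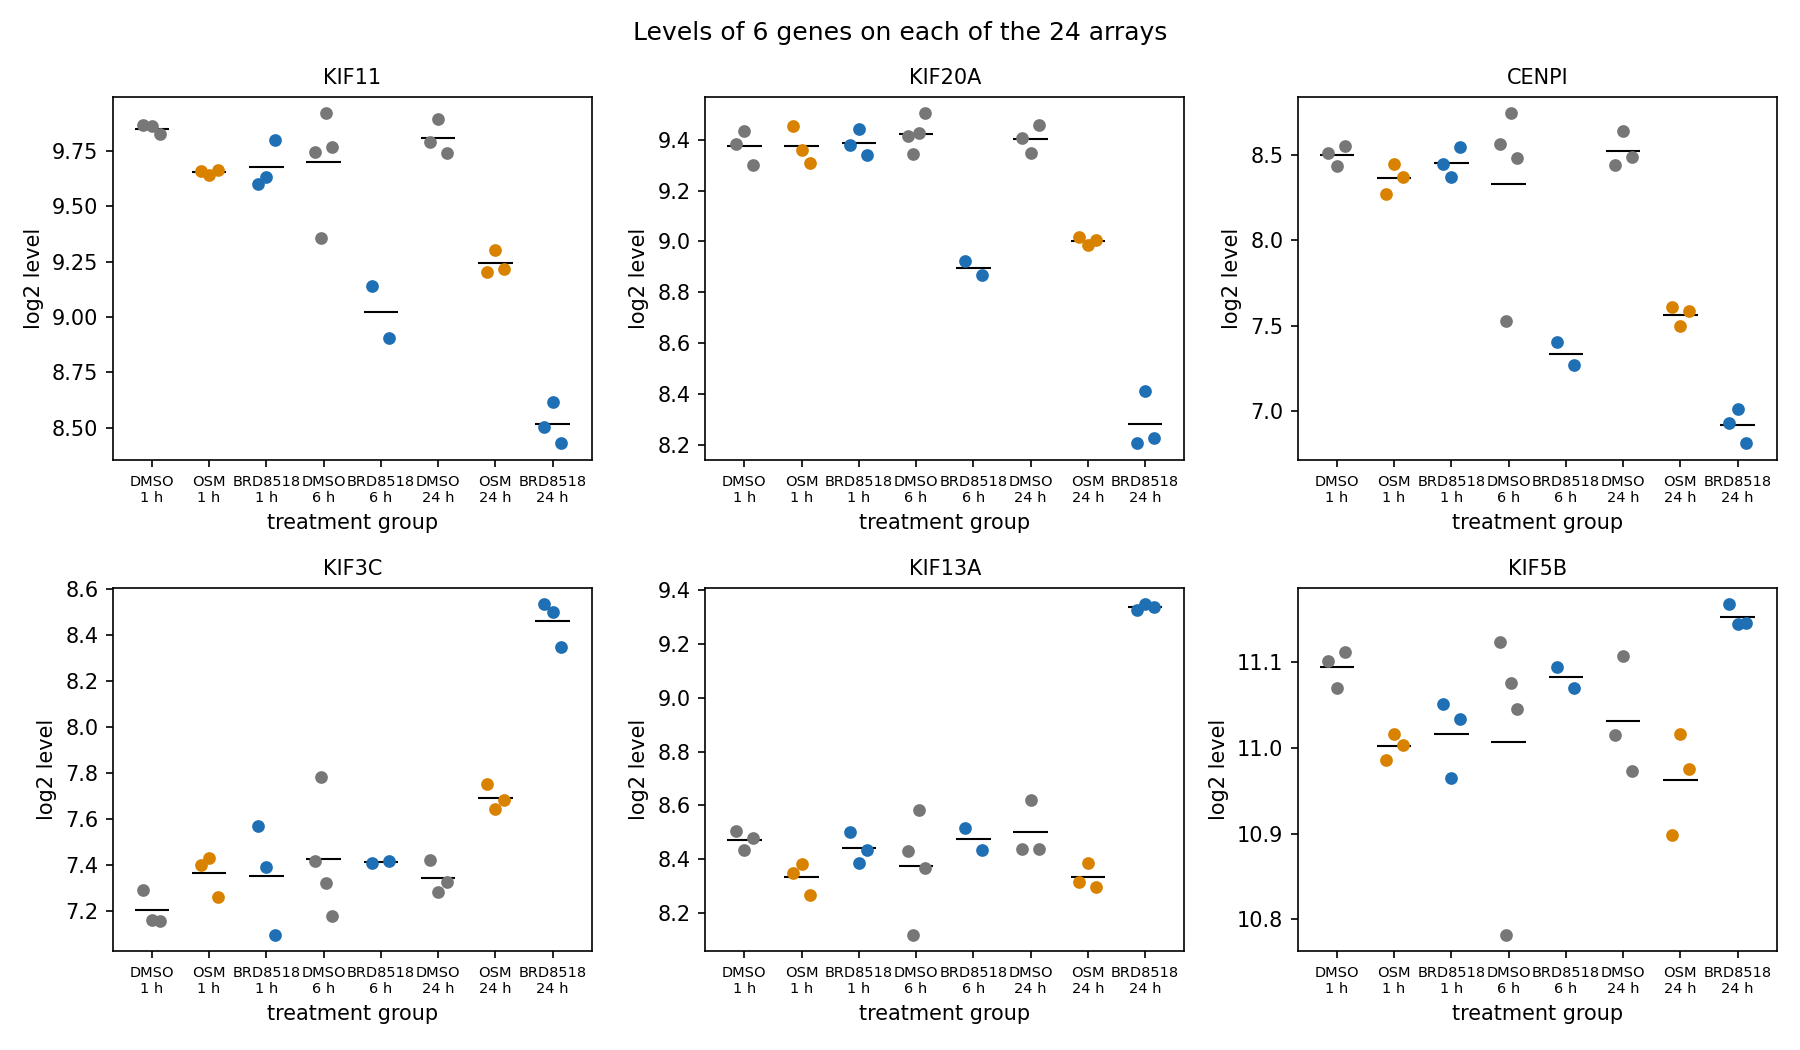
Each point is the log2 level of a gene on 1 array, each short line a group mean, and the vertical scales differ between panels. KIF11, KIF20A and CENPI are lower at 6 h of BRD8518 and have lower means still at 24 h, with OSM at 24 h between DMSO and BRD8518 of that time. The difference between the 24 h and 6 h effects passed the test for KIF11 and KIF20A and, with all arrays at equal weight, not for CENPI. For CENPI it passed without DMSO 6 h replicate 2 (-0.35, adjusted p = 0.0477) and with array weights (-0.38, adjusted p = 0.0458). KIF3C and KIF13A are higher at 24 h of BRD8518, and KIF5B spans from 10.78 to 11.17 over all arrays.

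At 1 h of BRD8518 no member passed the limma test, while 0.222% of all genes rose and 0.0336% fell, 0.255% together. An unadjusted p under 0.05 was found for 0 of the 57 and for 760 of all 14884 genes. All 3 BRD8518 arrays lay below DMSO for 5 members and above for 1, against 5.56% and 7.97% of all genes. KIF11 stood at 9.87, 9.86 and 9.82 in DMSO and 9.60, 9.63 and 9.80 in BRD8518, a change of -0.17 (95% interval -0.39 to 0.05). KIF20A stood at 9.39, 9.44 and 9.30 in DMSO against 9.38, 9.44 and 9.34 in BRD8518, CENPI at 8.51, 8.43 and 8.55 in DMSO against 8.45, 8.37 and 8.55 in BRD8518, and KIF3C at 7.29, 7.16 and 7.16 in DMSO against 7.57, 7.39 and 7.10 in BRD8518. These arrays overlapped, apart from KIF11, whose BRD8518 arrays all lay below DMSO. Changes over the 57 members ran from -0.20 to 0.26, and the median was -0.02 for mitotic and 0.01 for transport kinesins.

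At 1 h of OSM no member passed either, while 2.03% of all genes rose and 0.813% fell, 2.84% together. KIF1B and KIF3B, 2 of 57, had an unadjusted p under 0.05, as did 1632 of all 14884 genes. OSM arrays lay all below DMSO for 13 members and all above for 2, against 11.2% and 11.6% of all genes. CENPU stood at 7.73, 7.71 and 7.71 in DMSO and 7.43, 7.32 and 7.46 in OSM, the most negative change of the members (-0.31, 95% interval -0.66 to 0.03, adjusted p = 0.543). Its OSM arrays all lay below DMSO, and CENPU passed in a fit of the compared groups alone, with array weights, and without DMSO 6 h replicate 2. KIF11 stood at 9.66, 9.64 and 9.67 in OSM, below all DMSO arrays, with a change of -0.20 that did not pass (adjusted p = 0.545). Over 24 h of culture in DMSO, from 1 h to 24 h, 0 members passed and 0 had an unadjusted p under 0.05; over all genes 0% passed and 424 had such a p. The 24 h arrays lay all below the 1 h arrays for 0 members and all above for 3, against 3.35% and 6.23% of all genes.

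After 24 h of OSM, a cytokine of the interleukin-6 family that signals in hepatocytes through gp130, 18 members fell and 1 rose, while 5.65% of all genes fell and 4.6% rose, 10.3% together. Of the 13 mitotic kinesins 8 fell, and of the 15 CENP-A and CCAN genes 7. Transport kinesins had 1 rise, KIF5A, and 1 fall, KIF13B. The median change was -0.40 for mitotic kinesins, -0.40 for CENP-A and CCAN genes and 0.07 for transport kinesins, against 0.01 over all genes. OSM arrays lay all below DMSO for 28 members and all above for 5, against 16.6% and 14.2% of all genes. The count of 19 became 12 without DMSO 24 h replicate 2, 29 without DMSO 6 h replicate 2 and 32 with array weights.

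CENPI stood at 7.61, 7.50 and 7.58 on the OSM arrays, all below the lowest DMSO value, and changed by -0.96 (SE 0.18, adjusted p = 9.57e-04). KIF11 stood at 9.20, 9.30 and 9.22 in OSM, KIF20A at 9.02, 8.99 and 9.005 and KIF15 at 8.27, 8.26 and 8.33. Each lay below all DMSO arrays, with changes of -0.57 (SE 0.10), -0.40 (SE 0.07) and -0.59 (SE 0.12). CENPU stood at 6.88, 6.96 and 6.96, a change of -0.66 (SE 0.17, adjusted p = 0.01), and KIF24 at 6.37, 6.38 and 6.04, a change of -0.51 (SE 0.13, adjusted p = 0.0132). CENPU was lost without DMSO 24 h replicate 2 (-0.59), and KIF24 without that array or OSM replicate 3 (-0.44 and -0.40). DMSO 24 h replicate 2 had the highest DMSO value for each.

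The other largest falls with OSM were those of CENPK (-0.63), CENPM (-0.59) and KIF18B (-0.56), followed by CENPQ, CENPO, KIF23, KIF22, KIF13B, CENPP, CENPV, KIF4B and KIF2C from -0.54 to -0.33. KIF23 was lost without any 1 of the 6 arrays (-0.46 to -0.33), CENPK without any but DMSO replicate 3 (-0.67 to -0.52), and CENPP and KIF4B without any but OSM replicate 1 (CENPP -0.40 to -0.35, KIF4B -0.40 to -0.24). CENPQ was lost without DMSO replicate 1 (-0.46) or OSM replicate 2 (-0.44), and KIF2C without DMSO replicate 2 (-0.30) or OSM replicate 2 (-0.26). KIF13B, a transport kinesin close to KIF13A, stood at a mean of 8.28 in DMSO and 7.88 in OSM (-0.40, SE 0.08, adjusted p = 9.57e-04). CENPV, which helps set centromeric heterochromatin, fell by 0.36 (SE 0.08, adjusted p = 0.00395).

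KIF5A was the member that rose with OSM, to 6.15, 5.90 and 6.14, all above DMSO, by 0.62 (SE 0.13, adjusted p = 0.00303). KIF3C stood at 7.75, 7.64 and 7.68, above all DMSO arrays, with a change of 0.35 that did not pass (adjusted p = 0.0752), and KIF13A at 8.32, 8.38 and 8.30, with a change of -0.17. KIF3C and KIF3B (0.23) rose past the threshold with these groups alone, with array weights and without DMSO 6 h replicate 2. In that last fit 3 transport kinesins rose, with 7.26% of all genes higher and 9.78% lower. KIF26B stood at 5.01, 5.12 and 4.97, KIF5B at 10.90, 11.02 and 10.98 and KIF1C at 9.12, 9.11 and 8.996, with changes of 0.07, -0.07 and -0.20 that did not pass. The fall of KIF1C passed with array weights and without DMSO 6 h replicate 2.

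Of the partner lists with OSM at 24 h, 15 of 25 kinetochore genes fell, led by OIP5 (-0.70), which loads CENP-A with MIS18A, MAD2L1 (-0.60), a spindle checkpoint protein, SKA1 (-0.57) and ZWINT (-0.53). KIFC1 (-0.42) and PRC1 (-0.33) fell among 7 spindle partners. Of 18 regulators of G2 and mitosis 14 fell, with RBL1 at -0.61, CDC25C at -0.61, CDK1 at -0.55 and LIN54, which reads CHR letters, at -0.54. None of 12 transport partners passed, and 3 of them had an unadjusted p under 0.05, as did 2982 of all 14884 genes. Of 8 hepatocyte markers 5 fell and FGB rose (1.51), and of 10 markers of other cells CD14, CD68 and SOX9 rose and PECAM1 fell (-0.43); their part in the kinesin and CENP results was not tested.

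BRD8518 and OSM at 24 h were also compared directly. The agents and their doses differ, both were set against the same DMSO arrays above, and here no DMSO array enters the difference of means. Compared with OSM, 14 members were lower and 9 higher with BRD8518, while 12.3% of all genes were lower and 10.9% higher, 23.2% together. Of these calls over all genes 53.1% were lower, and 44.9% with arrays centred on the genes tested, when 13 members were lower and 11 higher. Lower were 4 mitotic kinesins, KIF11 (-0.73, SE 0.10, adjusted p = 1.45e-05), KIF20A (-0.72, SE 0.07, adjusted p = 8.02e-08), KIF15 (-0.52) and KIF2C (-0.30), and 7 CENP-A and CCAN genes, of which CENPI (-0.65), CENPX (-0.59), CENPO (-0.58) and CENPA (-0.52) differed most. KIF24 (-0.67) was lower too. For the other 9 mitotic kinesins, with differences from -0.52 for KIF20B to -0.01, the test did not pass. This does not show that the agents act alike on them. KIF20B, KIF18A and KIF18B passed with these groups fitted alone, with array weights and without DMSO 6 h replicate 2. That array enters only the shared estimate of the spread here.

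Higher with BRD8518 than with OSM were 6 transport kinesins, KIF13A (1.01, SE 0.09, adjusted p = 1.27e-08), KIF3C (0.77, SE 0.12, adjusted p = 4.27e-05), KIF1B (0.56), KIF21A (0.53), KIF5A (0.44) and KIF13B (0.40). KIF26B (0.49), KIF2A (0.41) and CENPV (0.35) were also higher. KIF3B was the transport kinesin lower with BRD8518 than with OSM (-0.24), and it was lost when any of the 6 arrays was left out (-0.25 to -0.21). KIF5A was lost without OSM replicate 2 or BRD8518 replicate 2 or 3 (0.36 to 0.41), CENPI without BRD8518 replicate 3 (-0.59), and KIF2C without OSM replicate 1 or 3 or BRD8518 replicate 3 (-0.27 to -0.24). CENPM (-0.39) was lost without BRD8518 replicate 1 or 3 or OSM replicate 1 or 3 (-0.38 to -0.36), and CENPH (-0.49) and KIF9 (-0.32), a ciliary motor, without OSM replicate 1 (-0.40 and -0.25). A fit of these groups alone called 35 members and array weights 36, against 23. Over all genes these fits called 4379 and 5286, against 3458.

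Of the partners, 15 of 25 kinetochore genes were lower with BRD8518 than with OSM, led by BIRC5 (-0.80), SKA3 (-0.80) and AURKB (-0.75). Among 12 transport partners 4 were higher, KIFAP3 (0.77), RHOT1 (0.48), a mitochondrial anchor for kinesin, KLC1 (0.39) and KLC2 (0.28), and RHOT2 was lower (-0.36). Of 8 hepatocyte markers 3 were lower with BRD8518 than with OSM, FGB (-1.93), TTR (-0.29) and TF (-0.16), and 0 were higher. Their mean level ran from 10.8 to 10.9 in BRD8518 and from 11.1 to 11.2 in OSM. Of 10 markers of other cells KRT19 (1.03) and CD68 (0.86) were higher and CD14 (-0.69), SOX9 (-0.28) and LYZ (-0.24) lower, with a mean level from 7.43 to 7.47 in BRD8518 and from 7.36 to 7.37 in OSM. The part of these markers in the difference between the agents was not tested.

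By promoter letters, which did not enter any test, CHR occurred in 12 of the 23 matched members that fell at 24 h of BRD8518, in 0 of 7 that rose and in 2 of 17 that did not pass. CCAAT letters occurred in 19 of 23, 2 of 7 and 5 of 17. CENPI, the member with the largest fall, had neither set of letters in its window.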

How the data were processed

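The deposited log2 values are RMA expression values for which the submitters' processing notes name oligo; its version and any genome build were not given in the sources used here. Values ran from 0.913 to 13.7 over 53617 probe sets (array medians 4.89 to 4.95) and were used as deposited. RMA gives no detection calls, and 1 member, KIF6, had a mean under 4. The platform's annotation table named 1 symbol for 16098 probe sets, and 37519 stayed unnamed here. For the 779 genes with several probe sets (2 members, KIF1B and KIF27) the one with the highest mean was kept, which left 14884 genes.

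All 24 arrays entered a single limma fit (version 3.58.1, R 4.3.3) that estimated a mean for each group and moderated the variances (prior degrees of freedom 5.3, total 21.3). For each comparison the 2-sided p-values of all 14884 genes were adjusted together by the Benjamini-Hochberg method, with a threshold of 0.05; intervals are 95%. The 8 comparisons were not adjusted across each other. The number of arrays limits the precision (median SE 0.113 to 0.120). The fit was tested on simulated data. Members, lists, motifs and comparisons were chosen with earlier results of these data known. Named members are up to 8 per direction with the largest change past the threshold; array values are given for up to 6 lower and 4 higher members at 24 h of BRD8518 and for the 2 mitotic and 2 transport kinesins of highest mean, and up to 4 partners per list and direction are named. Other members are named to account for every class. Promoters were read from RefSeq (GRCh38.p14) and matched by gene ID. Plots were made in matplotlib 3.10.9 (Python 3.11). The alternatives tried were averaging probe sets of 1 gene, dropping genes below the median level, centring each array, quantile normalization, eBayes with its trend and robust settings, fitting only the groups compared, weighting arrays, adding the position letter (fixed, or random by duplicateCorrelation), and leaving out arrays singly. Centring on the genes tested was chosen after seeing the data.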

Additional observations from a re-analysis of the deposited data

Results flagged for a closer look

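In the DMSO 6 h group, the 1 group with 4 arrays, 59 values (57 members and the means of the mitotic and of the transport kinesins) were searched for an array far from the other 3. Chance gives about 1 in 20 such cases for a single value, and 9 were found, all 9 on replicate 2. The 59 values share the same 4 arrays and are not independent, so that rate gives no test of the count. It was high for CENPBD2P at 7.79 (others 7.36 to 7.41), CENPM at 7.81 (7.23 to 7.28), CENPW at 7.44 (6.66 to 6.77) and KIF18B at 9.73 (9.04 to 9.13). It was low for CENPN at 8.37 (others 8.97 to 9.02), KIF15 at 8.24 (8.84 to 8.94), KIF18A at 6.91 (7.81 to 7.95), KIF20B at 7.44 (8.52 to 8.65) and KIF21A at 7.34 (7.75 to 7.82). Mitotic genes thus lay on both sides, but their class means were low on replicate 2. The mean was 8.19 for mitotic kinesins (others 8.37 to 8.45) and 7.43 for CENP-A and CCAN genes (7.74 to 7.87). For transport kinesins it was 7.32 (7.23 to 7.32).

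The BRD8518 effect differed between 24 h and 6 h, by the test of that difference with DMSO 6 h replicate 2 kept, for 13 members. It was more negative at 24 h for KIF15 (-0.95), CENPU (-0.87), CENPP (-0.77), CENPH (-0.67), KIF11 (-0.61), KIF20A (-0.60) and KIF22 (-0.42). It was more positive for KIF3C (1.13), KIF5A (1.04), KIF27 (0.89), KIF13A (0.74), KIF1B (0.47) and KIF26B (0.45). KIF27 had the opposite sign at the 2 times, -0.65 at 6 h and 0.24 at 24 h.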

How the results depend on the processing

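Of the 36 members that changed at 24 h of BRD8518, 29 passed under every alternative run, and the count stayed between 31 and 37. KIF21B, KIF26B and KIF5A passed wherever they were tested but were not tested above the median level, which kept 43 of the 57 members. CENPL, KIF14, KIF3A and KIF5C were lost in some. At 6 h 4 of 15 calls passed under every alternative (CENPL, untested above the median level, passed in the others). For OSM at 24 h 9 of 19 did so (KIF5A likewise untested), for BRD8518 against OSM at 24 h 15 of 23 (KIF26B), and for the 24 h minus 6 h difference 4 of 13 (KIF5A). No member's call changed sign under any alternative run. Fitting the compared groups alone gave 5 members in place of 15 at 6 h, 35 in place of 23 for BRD8518 against OSM at 24 h, 6 in place of 13 for the 24 h minus 6 h difference and 1 in place of 0 for OSM at 1 h. Array weights gave 24, 36, 24 and 3 for these, and 32 in place of 19 for OSM at 24 h. The lowest weight was that of DMSO 6 h replicate 2, 0.0635. Calls over all genes shifted as well. In the same order they were 2155, 3458, 1649 and 423 as reported and 452, 4379, 875 and 449 with the groups alone. With array weights they were 3466, 5286, 2866 and 1125, and 3068 in place of 1526 for OSM at 24 h. Leaving out 1 array gave 32 to 37 members for BRD8518 at 24 h, 10 to 23 at 6 h, 12 to 29 for OSM at 24 h, 0 to 1 for OSM at 1 h, 18 to 33 for BRD8518 against OSM and 8 to 19 for the 24 h minus 6 h difference. The highest count in each of these 6 was without DMSO 6 h replicate 2. Calls over all genes in that fit were, in the same order, 5315, 3345, 2535, 806, 4741 and 2741. BRD8518 at 1 h and DMSO over time had 0 in every fit. Centring arrays on the genes tested made 41.9% of all calls at 6 h lower, against 61.2% as deposited, and 56.9% of those for the 24 h minus 6 h difference, against 46.2%, and 44.9% of those for BRD8518 against OSM at 24 h, against 53.1%; members at 6 h were then 11 lower and 2 higher. With the position letter as a fixed term BRD8518 at 24 h had 32 calls and OSM 13, from the same changes as without DMSO 24 h replicate 3. Over all genes that term gave 3514 and 1147 calls, against 4122 and 1526. The cause of these shifts was not tested. RMA values give no signal over background, so no member could be called undetected. No paired analysis was possible because the labels carry no replicate numbers shared by groups.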
